A study of Homo sapiens with 10 samples.

Results

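Luteolin and gefitinib were each given to PC-3 cells alone and together, and the departure from additivity is the part of the combined change that the single drugs do not add up to. On the log2 scale it is the level with both drugs, minus the level with luteolin, minus the level with gefitinib, plus the level with DMSO, so that 0 means that the changes with each drug add up. PC-3 is an androgen-independent human prostate cancer line, and total RNA of whole cultures was hybridized to single-colour Agilent whole genome arrays. The 8 arrays used, of 10 in the series, were 2 of cells kept for 24 h with the solvent DMSO, 2 with 60 µM luteolin, 2 with 60 µM gefitinib and 2 with 60 µM of each (L+G). The other 2 arrays, of untreated cells at 0 h, entered the fit and served as an alternative baseline. The labels call the arrays of a group biological replicates and say nothing more of their cultures.

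The sample titles and the names of the scanner files disagree for the 6 drug-treated arrays. Arrays titled luteolin carry gefitinib in the file name, arrays titled gefitinib carry both drugs, and arrays titled L+G carry luteolin. The departure was therefore computed by title and again by file name, from the same 8 arrays. By arithmetic, both departures add up to 2 times the difference of DMSO and the arrays titled luteolin, and differ by 2 times the difference of the arrays titled L+G and gefitinib. A gene that departs the same way under both assignments is hence one that the arrays titled luteolin moved the opposite way against DMSO, and the overlap is a description of shared arrays and no replication. Treatments below are named by title unless the file name is given.

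Gefitinib blocks the kinase of the epidermal growth factor receptor (EGFR) and also binds cyclin G-associated kinase (GAK), a kinase of clathrin-coated vesicles. Luteolin is a plant flavone that inhibits several kinases. Growth factor signals feed the cell cycle through E2F and the mitotic genes, while amino acid shortage and misfolded protein in the endoplasmic reticulum act through ATF4 and CHOP, and low sterol acts through SREBP. On a log2 scale additivity means that fold changes multiply. A combined change smaller than the sum is then a departure above the sum for genes that both drugs lower and below it for genes that both drugs raise.

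Promoters of 5 members are shown because they departed from the sum and their lists have a known response element. The sequences are the 250 bases before the first listed start of the gene in RefSeq, on GRCh38.p14, 5′ to 3′ on the strand of the gene, with each match of the element on either strand in capitals. UHRF1, which keeps DNA methylation at replication, lies at chr19:4909251-4909500, plus strand, with an E2F site in capitals (TTTGGCGC, TTTCGCGC, TTTCCCGC or TTTGCCGC). CDCA8, a subunit of the chromosomal passenger complex, lies at chr1:37692266-37692515, plus strand, with the cell cycle genes homology region TTTGAA. CHAC1, which degrades glutathione, lies at chr15:40953221-40953470, plus strand, with the amino acid response element TGATGNAA. HSP90B1, a chaperone of the endoplasmic reticulum, lies at chr12:103930160-103930409, plus strand, with the stress response element, CCAAT and CCACG with 9 bases of any kind between them. HSPA6, an inducible heat shock protein, lies at chr1:161524290-161524539, plus strand, with the heat shock element GAANNTTC.
UHRF1: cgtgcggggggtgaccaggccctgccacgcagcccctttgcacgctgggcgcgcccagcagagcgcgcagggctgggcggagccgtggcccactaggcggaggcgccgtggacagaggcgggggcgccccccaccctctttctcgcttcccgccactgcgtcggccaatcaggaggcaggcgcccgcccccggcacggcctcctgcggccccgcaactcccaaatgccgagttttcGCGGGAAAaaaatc
CDCA8: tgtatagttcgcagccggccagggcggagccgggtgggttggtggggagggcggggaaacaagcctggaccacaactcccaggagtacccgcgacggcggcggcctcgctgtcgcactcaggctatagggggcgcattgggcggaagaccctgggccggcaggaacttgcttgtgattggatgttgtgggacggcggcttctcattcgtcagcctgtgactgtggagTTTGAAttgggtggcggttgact
CHAC1: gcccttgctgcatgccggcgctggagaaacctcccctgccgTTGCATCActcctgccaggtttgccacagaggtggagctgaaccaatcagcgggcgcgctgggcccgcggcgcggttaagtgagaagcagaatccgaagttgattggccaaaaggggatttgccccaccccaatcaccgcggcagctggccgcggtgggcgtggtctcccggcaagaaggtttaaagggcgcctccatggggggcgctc
HSP90B1: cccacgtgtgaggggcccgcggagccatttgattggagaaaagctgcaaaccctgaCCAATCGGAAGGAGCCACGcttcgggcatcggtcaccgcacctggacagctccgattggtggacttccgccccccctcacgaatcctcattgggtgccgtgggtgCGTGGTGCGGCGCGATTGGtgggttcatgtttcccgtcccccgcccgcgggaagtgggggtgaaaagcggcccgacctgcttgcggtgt
HSPA6: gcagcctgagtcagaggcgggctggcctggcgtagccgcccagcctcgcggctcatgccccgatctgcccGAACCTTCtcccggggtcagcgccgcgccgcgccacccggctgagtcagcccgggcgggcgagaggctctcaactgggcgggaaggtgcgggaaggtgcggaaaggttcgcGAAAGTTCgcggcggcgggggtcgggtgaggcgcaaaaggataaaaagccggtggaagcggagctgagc

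Of 19718 genes tested, 10784 had such a promoter. The E2F letters occurred in 16 of 40 promoters of the DNA replication list, against 4.41% of promoters of all tested genes, and TTTGAA in 22 of 40 of the mitosis list, against 8.7%. The endoplasmic reticulum element occurred in 6 of 23 promoters of the chaperone list, against 0.13%, and the amino acid response element in 3 of 18 of the ATF4 list, against 1.46%. GAANNTTC was in 8 of 21 promoters of the heat shock list, against 4.11%. The sterol regulatory element TCACNCCAC was in 1 of 22 promoters of the cholesterol list, against 0.89%, and the metal response element TGCGCNC in 3 of 4 of the metallothionein list, against 25.7%. Members with and without the letters both departed. Among members above the sum by title that had a promoter, the E2F letters were in 9 of 26 replication genes, beside 16 of 40 in the whole list. TTTGAA was in 14 of 25 such mitosis genes, beside 22 of 40. These matches describe letters in the window and no bound site.

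Array quality set limits on these values. The 75th percentile of signal ran from 1041 to 1349.9 units on the DMSO and luteolin arrays and from 539.8 to 865 on the gefitinib and L+G arrays, and all levels below are log2 relative to it. The median SD of a tested probe between the 2 arrays of a group was 0.0907 for DMSO, 0.138 for luteolin, 0.184 for gefitinib and 0.255 for L+G. The arrays lay on 3 slides, and the first replicate of all 4 groups shared slide 1, which gives the departure once within a slide. Cytokeratin genes KRT8 and KRT18 were well above background on all 10 arrays, as was KLK3, which encodes prostate-specific antigen. Among markers of blood, vessel and stroma cells, PTPRC, VWF, PDGFRB and DCN were so on 0 arrays, and CD3E, PECAM1 and COL1A1 on 9 or 10. In whole cultures fewer cells of a kind and less RNA per cell cannot be told apart.

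By title, 3532 genes (17.9%) lay above the sum and 3213 (16.3%) below it at an adjusted p under 0.05, with a median departure over all genes of −0.16 and a median standard error of 0.31. By file name 3849 genes (19.5%) lay above and 4893 (24.8%) below, with a median of −0.03. The counts of list members given below stand beside these shares of all genes, and a count near them does not set a list apart. Under both assignments 395 genes (2%) were above and 565 (2.87%) below, whereas 2933 genes were called in opposite directions, 2055 of them above by title and below by file name. The genes shared were 11.2% of those above by title and 10.3% of those above by file name, and 17.6% and 11.5% of those below. A further 2852 genes were called by title alone and 4849 by file name alone. All 565 genes below the sum under both were raised against DMSO in the arrays titled luteolin, and all 395 above it were lowered there, as the arithmetic requires. The departures of replicate 1 and replicate 2 correlated across genes (r = 0.75 by title, 0.79 by file name), genes not being independent replicates, and had the same sign in 77.7% of genes by title.

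**Figure D1:**
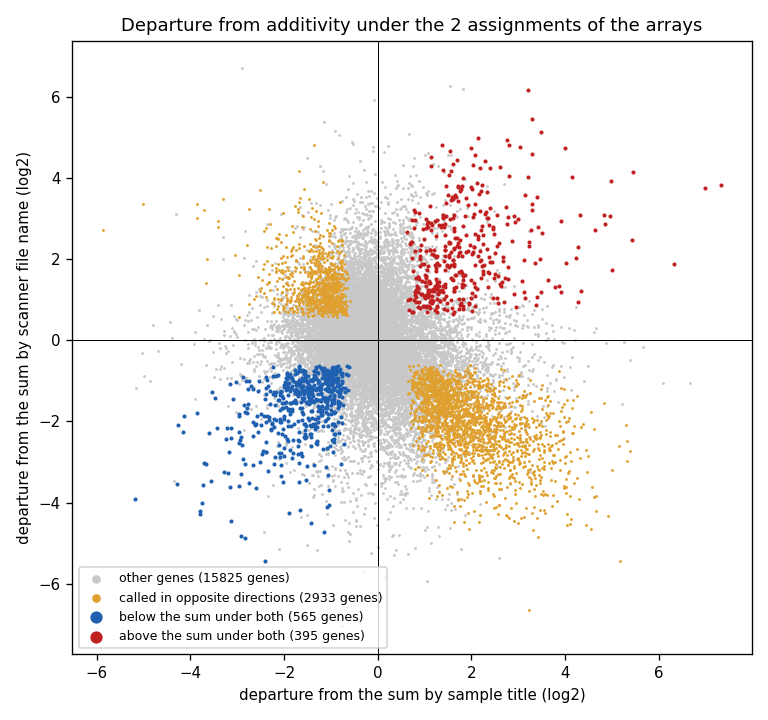
Departure from the sum of the single drugs by sample title (horizontal axis, log2) and by scanner file name (vertical axis, log2), 1 point per gene. The 395 genes above the sum under both assignments fill the upper right, the 565 below it the lower left, and most of the 2933 genes called in opposite directions (2055) lie at the lower right.

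The commonest form of departure was a reversal, by the sign of the group means. A reversal so counted need not hold a called change against DMSO, and 588 of 12973 genes not called by title (4.53%) had this form too. By title, 1111 of the 3532 genes above the sum (31.5%) had moved down with each drug, on average over 2 arrays, but lay above DMSO with both, and 1115 of 3213 below it (34.7%) did the converse. Only 64 genes above the sum (1.81%) and 71 below it (2.21%) lay farther from DMSO with both drugs than with either drug. The change with both drugs against DMSO was not called in 60.2% of the genes above the sum and 53.9% of those below, beside 58.7% of all genes tested. Where both single drugs were called in the same direction, all 563 genes above the sum had been lowered by both, and 750 of 752 genes below it had been raised by both. The combination was not called against DMSO in 319 of those 563 genes and in 380 of those 752. These counts follow in part from the arithmetic, since the single changes enter the departure with a minus sign. By file name the reversal was the commonest form too, with 1863 genes above the sum (48.4%) and 1912 below it (39.1%).

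**Figure D2:**
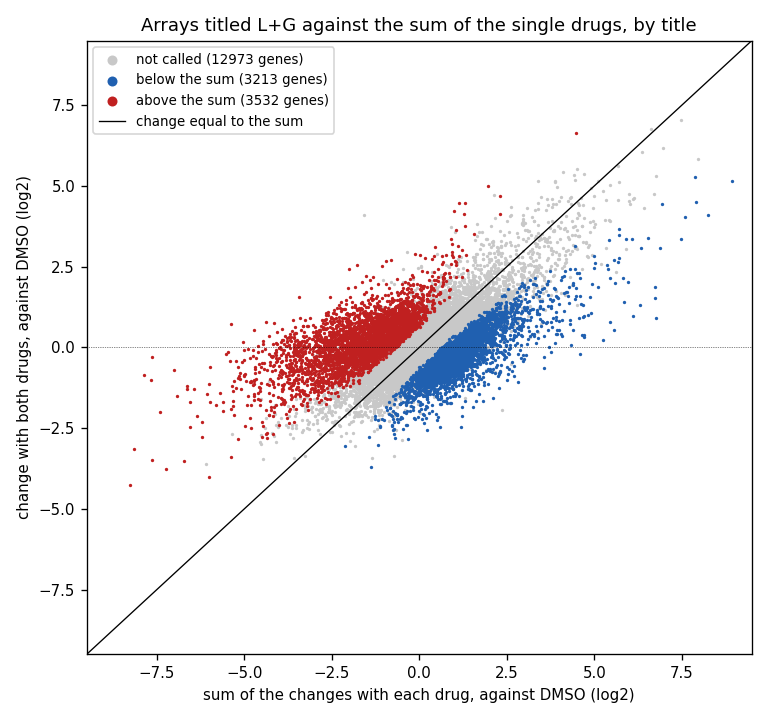
Change with both drugs against DMSO (vertical axis, log2) and the sum of the changes with luteolin and with gefitinib (horizontal axis, log2), by title, 1 point per gene, with the line of equality. The 3532 genes above the sum and the 3213 below it lie at combined changes closer to 0 than most of their sums.

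Genes of cell division lay above the sum under both assignments. DNA replication and S phase genes were above the sum for 29 of 47 tested and below for 0, with a median departure of 1.16 by title, and above for 40 and below for 0 by file name, with a median of 2.40. Mitosis and G2/M genes were above for 30 of 47 and below for 1 by title (median 1.44), and above for 44 and below for 0 by file name (median 2.96). Homologous recombination and Fanconi repair genes were above for 17 of 29 and below for 1 by title (median 1.49), and above for 21 and below for 1 by file name (median 1.84). The same direction under both assignments was called for 23 replication, 27 mitosis and 11 repair genes, all above. For the counts of 0, limma's unadjusted p under 0.05 called 0 replication genes below the sum by title, 1 by file name, and 0 mitosis genes below by file name, and the methods' t-test, on the departures of the 2 replicates and without adjustment, gave 0, 1 and 0.

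Luteolin lowered 45 of the 47 replication genes, 46 of the 47 mitosis genes and 25 of the 29 repair genes against DMSO. Gefitinib lowered 27 mitosis genes and raised 2, but lowered 11 replication genes and raised 13. With both drugs, 15 replication genes were lowered and 3 raised, and 41 mitosis genes were lowered. The departure within slide 1 had a median of 1.29 for replication, 1.61 for mitosis and 1.79 for repair genes, and the other replicate, across slides, gave 1.39, 1.28 and 1.29.

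RRM2, the regulated subunit of ribonucleotide reductase that makes deoxynucleotides, measured 2.20 and 2.30 with DMSO, −2.26 and −2.61 with luteolin, 2.37 and 2.40 with gefitinib, and 1.25 and 0.56 with both. The L+G arrays stood between the single drugs, and far above the −2.30 that the sum gives. Its departure was 3.21 by title (SE 0.34, adjusted p = 0.000556) and 6.17 by file name (adjusted p = 0.000121). DTL, which targets the licensing factor CDT1 for destruction, measured 1.58 and 1.68 with DMSO, −2.06 and −2.61 with luteolin, 0.11 and 0.59 with gefitinib, and 1.30 and 1.14 with both. Luteolin arrays were lowest and did not overlap any other group, and L+G arrays lay just under DMSO. The departure of DTL was 4.84 by title (SE 0.32, adjusted p = 0.000153) and 3.09 by file name (adjusted p = 0.000319).

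FEN1, the flap endonuclease of lagging strand synthesis, was above the sum by title but was not called by file name. It measured 1.68 and 1.54 with DMSO, −0.17 and −0.47 with luteolin, −0.36 and −0.41 with gefitinib, and 2.11 and 2.22 with both. Each drug lowered it, and the L+G arrays were above all DMSO arrays. The departure was 4.48 by title (SE 0.24, adjusted p = 0.000122) and −0.62 by file name (adjusted p = 0.0698). CDCA8 went from 2.83 and 2.73 with DMSO to 0.75 and 0.14 with luteolin, to 0.85 and 0.94 with gefitinib, and to 2.09 and 1.99 with both. Here too the L+G arrays were nearer to DMSO than either drug, with a departure of 3.48 by title (adjusted p = 0.000305) and 1.19 by file name (adjusted p = 0.0136).

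Further members had like values. UHRF1 departed by 3.29 by title and 5.46 by file name, EXO1, an exonuclease of mismatch repair and end resection, by 4.32 and 3.09, and BLM, the helicase lost in Bloom syndrome, by 3.11 and 1.99. XRCC2, a factor of homologous recombination, departed by 3.63 and 1.49, and the combination raised it against DMSO (0.84, adjusted p = 0.0138) where luteolin lowered it (−2.56, adjusted p = 0.000398). For genes whose sum falls under the detection limit the departure rests on an extrapolation below background. That held for LMNB1, which encodes lamin B1 (departure by title 5.00), for MKI67, the Ki-67 proliferation marker (3.15), and for CCNA2, cyclin A2 (4.03). The same held for MCM10, a replication origin factor (4.97), and E2F2, an E2F activator (6.99), whose sums were −6.33 and −7.53. MCM10 and E2F2 were well above background on 7 of the 8 arrays, and another probe of E2F2 gave −0.82.

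**Figure D3:**
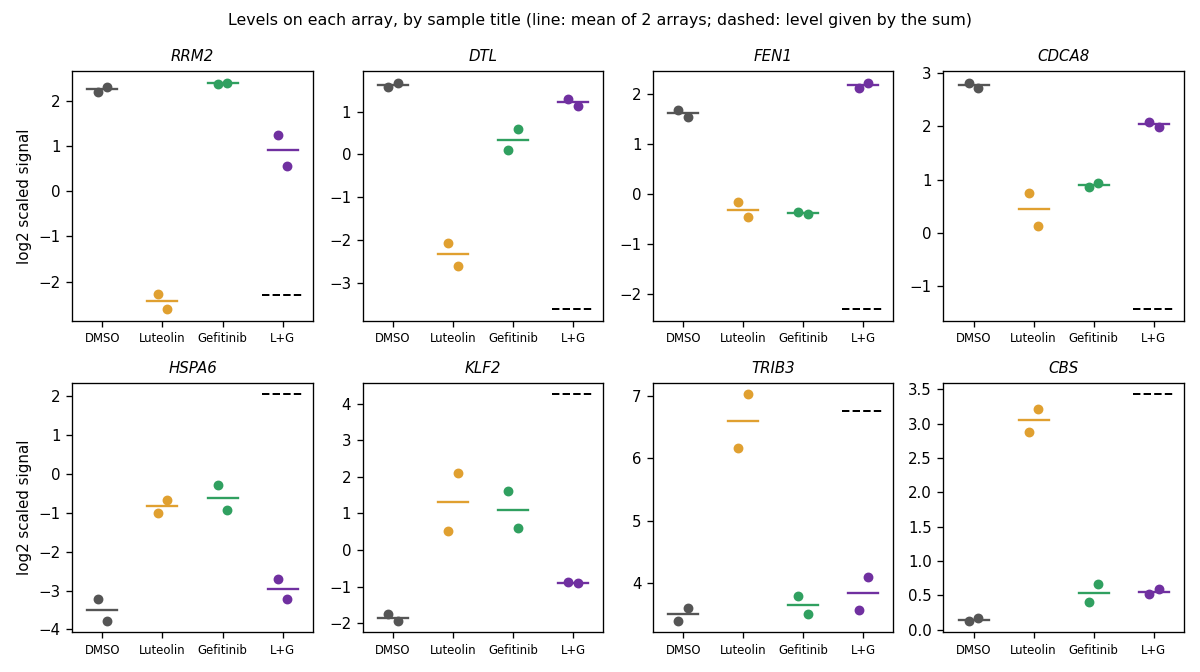
Log2 scaled signal of 8 genes on each of the 2 arrays per group, by title, with the mean of the group (line) and the level that the sum of the single drugs gives for both (dashed). RRM2, DTL, FEN1 and CDCA8 lie above the dashed level with both drugs, and HSPA6, KLF2, TRIB3 and CBS below it.

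In lists of the amino acid and unfolded protein responses, more genes were called below the sum than above it under each assignment. In the ATF4 and CHOP stress list 11 of 20 genes were below and 2 above by title (median −1.38), and 16 were below and 1 above by file name (median −2.82). Serine, glycine and one-carbon enzymes were below for 9 of 17 and above for 0 by title (median −0.99), and below for 7 and above for 3 by file name (median −0.46). Amino acid transporters were below for 7 of 18 and above for 1 by title (median −0.65), and below for 12 and above for 1 by file name (median −1.19). Chaperones and enzymes of the endoplasmic reticulum were below for 14 of 27 by title (median −0.81) and for 13 by file name (median −0.65), and above for 0 under either. Aminoacyl-tRNA synthetases, the enzymes that charge tRNA, were below for 8 of 20 and above for 1 by title, and below for 7 (35%) and above for 5 (25%) by file name, not far from the 24.8% and 19.5% of all genes. Below the sum under both assignments were 9 of the ATF4 and CHOP genes, 5 of the serine and one-carbon enzymes, 7 of the transporters, 6 of the chaperones and 3 of the synthetases. At an unadjusted p under 0.05 in limma's fit, 0 serine and one-carbon genes and 1 chaperone gene were above by title and 0 chaperone genes above by file name, and the methods' t-test without adjustment gave 0 in each case.

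TRIB3, a pseudokinase induced by ATF4 and CHOP, measured 3.39 and 3.60 with DMSO, 6.17 and 7.04 with luteolin, 3.80 and 3.51 with gefitinib, and 3.57 and 4.10 with both. Only the luteolin arrays stood clear of the other groups. The departure was −2.92 by title (SE 0.46, adjusted p = 0.00236) and −3.29 by file name (adjusted p = 0.000909). CBS, which makes cystathionine from homocysteine and serine, measured 0.13 and 0.17 with DMSO, 2.88 and 3.22 with luteolin, 0.40 and 0.66 with gefitinib, and 0.51 and 0.60 with both. It showed the same form, with departures of −2.88 by title (SE 0.27, adjusted p = 0.000389) and −2.93 by file name (adjusted p = 0.000235). NUPR1, a stress-induced chromatin protein, departed by −3.72 and −3.02, and DDIT3, which encodes CHOP, by −2.65 and −3.07, the first of which lost its call without any of 4 single arrays. ASNS, asparagine synthetase, departed by −1.63 and −2.77, PHGDH, the first enzyme of serine synthesis, by −1.92 and −1.34, and SLC7A11, the cystine importer, by −1.66 and −4.18.

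Others of these lists departed by title alone. PYCR1, an enzyme of proline synthesis, measured 4.21 and 4.05 with DMSO, 5.43 and 5.63 with luteolin, 5.01 and 5.00 with gefitinib, and 3.998 and 3.990 with both. Each drug raised it and the L+G arrays lay just under DMSO, a departure of −2.42 (SE 0.22, adjusted p = 0.00036) by title and of −0.39 (adjusted p = 0.192) by file name. AARS1, alanyl-tRNA synthetase, departed by −2.65 by title (adjusted p = 0.000224) and by −0.53 by file name (adjusted p = 0.0745). In the endoplasmic reticulum, HYOU1, a chaperone of the HSP70 type, departed by −1.68 and −0.97, and DNAJC10, a disulfide reductase, by −1.85 and −0.90, called under both. CANX, the lectin chaperone calnexin, departed by −1.30 by title (adjusted p = 0.00724) and −0.62 by file name (adjusted p = 0.0922).

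Lipid and lysosome genes were more often below than above the sum by title. Cholesterol synthesis and uptake genes were below for 18 of 30 and above for 1 by title (median −1.06), and below for 13 and above for 3 by file name (median −0.70), with 6 below under both. Luteolin raised 15 of the 30, gefitinib raised 19 and lowered 2, and the combination raised 10 and lowered 2. STARD4, a sterol carrier, measured −1.94 and −1.72 with DMSO, −0.38 and −0.42 with luteolin, −1.03 and −0.84 with gefitinib, and −1.80 and −1.78 with both. Each drug raised it, the L+G arrays lay within the range of DMSO, and the departure was −2.28 by title (SE 0.25, adjusted p = 0.000612) and −0.58 by file name (adjusted p = 0.0928). INSIG1, the sterol-dependent retention protein of SREBP, departed by −2.33 and −1.96, with the call by title lost without any of 5 single arrays. Fatty acid synthesis genes were below for 10 of 21 and above for 3 by title (median −0.93), and below for 4 and above for 5 by file name (median −0.07). Autophagy and lysosome genes were below for 16 of 41 and above for 1 by title (median −0.76), and below for 16 and above for 6 by file name (median −0.61), with 9 below under both. Among these were WIPI1, a phosphoinositide-binding autophagy protein (−2.06 and −3.08), and SQSTM1, the receptor p62 (−1.88 and −1.55).

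Metallothioneins, small zinc-binding proteins, were below the sum for 7 of 10 by title (median −1.67), but for 1 of 10 by file name (median 0.30). Above the sum 0 were called by limma under either assignment, also at an unadjusted p under 0.05 and by the methods' t-test. MT1F measured 0.66 and 0.75 with DMSO, 3.00 and 3.30 with luteolin, 2.33 and 1.97 with gefitinib, and 0.77 and 1.47 with both, a departure of −3.48 by title (SE 0.36, adjusted p = 0.000512) and −1.41 by file name (adjusted p = 0.0137). The genes of this family are near-identical copies, so that their probes may share signal. The median was −2.50 within slide 1 and −0.91 in the other replicate.

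Immediate early genes are transcribed within minutes of a stimulus. By title 11 of 26 were below the sum (42.3%, beside 16.3% of all genes) and 5 above (19.2%, beside 17.9%), with a median of −0.70. By file name 8 were below (30.8%, beside 24.8%) and 6 above (23.1%, beside 19.5%), with a median of −0.86. The Kruppel-like factors, zinc finger regulators, were below for 5 of 12 and above for 1 by title, and for 6 and 1 by file name. KLF2 had the largest departure below the sum by title among genes well above background on all 8 arrays. It measured −1.76 and −1.94 with DMSO, 0.52 and 2.12 with luteolin, 1.60 and 0.59 with gefitinib, and −0.87 and −0.90 with both. The L+G arrays lay under every array of either drug, and the departure was −5.16 by title (SE 0.69, adjusted p = 0.00125) and −1.18 by file name (adjusted p = 0.203). RASD1, a RAS-related GTPase, departed by −4.99 by title and −0.87 by file name (adjusted p = 0.15), NR4A2, an orphan nuclear receptor, by −4.86 and −1.002 (adjusted p = 0.268), and GEM, a GTPase, by −4.44 and 0.46 (adjusted p = 0.507). ARC, an activity-induced gene, turned direction. It measured −4.64 and −4.99 with DMSO, −5.28 and −4.53 with luteolin, 1.17 and 0.29 with gefitinib, and −2.62 and −2.72 with both, which is −3.31 by title (adjusted p = 0.00175) and 3.49 by file name (adjusted p = 0.000876).

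HSPA6 had the lowest departure of its list by title, where the highest was 1.41. It measured −3.22 and −3.78 with DMSO, −0.996 and −0.655 with luteolin, −0.29 and −0.92 with gefitinib, and −2.71 and −3.22 with both. The lower L+G array matched the higher DMSO array, far under the arrays of either drug, and the departure was −5.03 by title (SE 0.42, adjusted p = 0.000257) and −0.32 by file name (adjusted p = 0.577). Of the 24 cytosolic heat shock genes 5 were above (20.8%, beside 17.9% of all genes) and 2 below (8.33%, beside 16.3%) by title (median 0.45). By file name 12 were above (50%, beside 19.5%) and 4 below (16.7%, beside 24.8%), with a median of 0.62. By title as many were above as below with slide as a block, without the filter on dim probes, and without DMSO replicate 1, DMSO replicate 2 or luteolin replicate 2. HSPA8, the constitutive member that uncoats clathrin with GAK, departed by 1.27 (adjusted p = 0.0426) by title, a call lost in most alternatives, and by 0.04 by file name. Cytokines and chemokines were below for 8 of 28 and above for 2 by title (median −0.73), and below for 2 and above for 4 by file name. Secreted proteases and matrix genes were below for 8 of 34 and above for 1 by title, and below for 2 and above for 10 by file name. PLAT, tissue plasminogen activator, had −1.65 (adjusted p = 0.00935) by title and 3.52 (adjusted p = 0.000301) by file name.

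**Figure D4:**
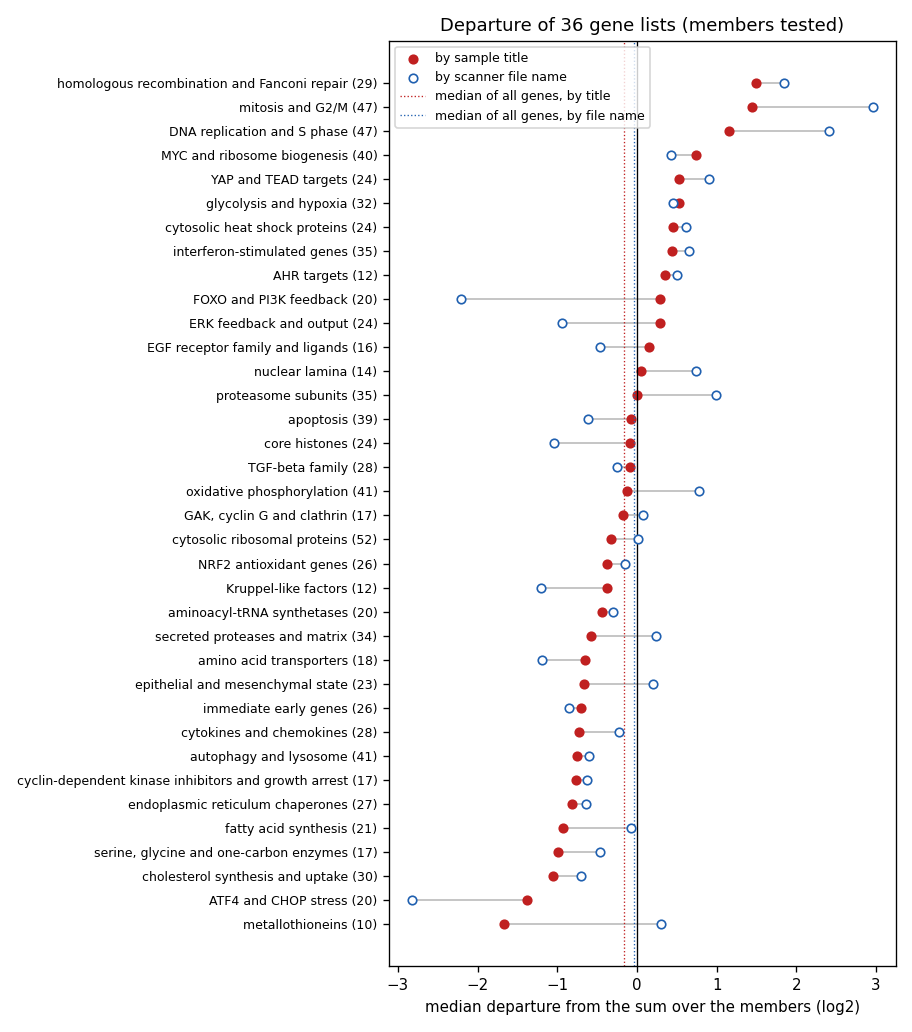
Median departure from the sum over the tested members of each of 36 gene lists (horizontal axis, log2), by title (filled) and by file name (open), with the medians of all genes dotted. Mitosis genes (1.44 and 2.96) and ATF4 and CHOP stress genes (−1.38 and −2.82) lie far from 0 on the same side under both, whereas FOXO and PI3K feedback genes (0.29 and −2.21) do not.

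Several functions departed above the sum by title without doing so evenly by file name. MYC targets and ribosome biogenesis genes were above for 18 of 40 and below for 0 by title (median 0.75; 1 below at an unadjusted p under 0.05, 0 by the methods' t-test), and above for 17 and below for 7 by file name (median 0.42). PPRC1, a coactivator of growth genes, measured 1.14 and 1.06 with DMSO, 0.76 and 0.67 with luteolin, −1.27 and −1.66 with gefitinib, and 1.39 and 1.75 with both. Gefitinib arrays alone were low, and the departure was 3.42 by title (adjusted p = 0.000218) and −2.65 by file name (adjusted p = 0.000293). PPAN and BYSL, ribosome assembly factors, turned likewise, with 3.16 and 3.02 by title and −1.35 and −0.85 by file name. Glycolysis and hypoxia genes were above for 11 of 32 and below for 1 by title (median 0.52), and above for 7 and below for 9 by file name. SLC2A1, the glucose transporter GLUT1, had 2.30 (adjusted p = 0.00734) and −2.07 (adjusted p = 0.00814), and ANGPTL4, a lipase inhibitor, 3.62 and −3.80.

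Apoptosis genes were above for 8 of 39 (20.5%, beside 17.9% of all genes) and below for 3 by title (median −0.08), and above for 5 and below for 12 (30.8%, beside 24.8%) by file name (median −0.62), shares near those of all genes. FADD, the adaptor of death receptors, measured 4.03 and 4.08 with DMSO, 3.68 and 3.50 with luteolin, 0.67 and 0.17 with gefitinib, and 3.94 and 3.49 with both. The gefitinib arrays were the low ones, with a departure of 3.76 by title (adjusted p = 0.000236) and −2.83 by file name (adjusted p = 0.000357). DKK1, a secreted WNT inhibitor, and TMEM177, a mitochondrial membrane protein, had the same form, with 4.56 and 4.84 by title and −1.77 and −1.55 by file name.

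Interferon-stimulated genes were above for 10 of 35 and below for 1 by title (median 0.44), and above for 12 and below for 1 by file name (median 0.65), but the same direction was called under both for 3 above and 1 below. IFIT1, which binds foreign RNA caps, measured 3.49 and 4.04 with DMSO, 1.71 and 0.85 with luteolin, 1.54 and 1.75 with gefitinib, and 4.72 and 2.91 with both. The L+G arrays spread across the DMSO level, with a departure of 4.66 by title (SE 0.75, adjusted p = 0.00258) and 0.31 by file name (adjusted p = 0.768). YAP and TEAD targets were above for 7 of 24 and below for 4 by title (median 0.53), and above for 11 and below for 2 by file name (median 0.91), with 3 above under both. Those 3 were CCN2, a matricellular protein (2.93 and 2.92), CCN1, its relative (2.78 and 1.504), and AJUBA, a LIM scaffold protein (2.47 and 1.04). TGF-beta family genes were above for 8 of 28 and below for 3 by title, and above for 6 and below for 11 by file name. Of the 8 above by title, 2 had a sum under the detection limit. INHBB, an activin subunit, was above under both (2.40 and 4.25).

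Core histone genes were above for 9 of 24 and below for 1 by title (median −0.09), and above for 3 and below for 14 by file name (median −1.03). H4C3, of this list, and H4C13, not counted in it, both encode histone H4. They were above under both, with 4.63 and 2.71 for the first and 4.85 and 2.87 for the second. These genes are near-identical copies whose probes may share signal. Cyclin-dependent kinase inhibitor and growth arrest genes were below for 6 of 17 and above for 4 by title, and below for 6 and above for 3 by file name. CDKN2B, the inhibitor p15, was below under both (−2.84 and −4.87). CDKN1C, the inhibitor p57, measured 0.69 and 0.88 with DMSO, 2.42 and 2.83 with luteolin, 2.61 and 2.71 with gefitinib, and 0.82 and 0.77 with both. Either drug raised it and both left it at the DMSO level, a departure of −3.71 (SE 0.35, adjusted p = 0.000388) by title and 0.028 by file name.

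Some functions departed by file name almost alone. Proteasome subunits were above for 24 of 35 by file name and below for 0 (median 1.00), but above for 3 and below for 1 by title (median 0.00). Oxidative phosphorylation genes were above for 22 of 41 and below for 0 by file name (median 0.78), but above for 1 and below for 2 by title (median −0.12). FOXO and PI3K feedback genes were below for 18 of 20 and above for 0 by file name (median −2.21), but above for 4 and below for 3 by title (median 0.29). For those counts of 0, limma's unadjusted p under 0.05 and the methods' t-test also gave 0. ERK feedback and output genes were below for 11 of 24 and above for 2 by file name (median −0.94), but above for 6 and below for 2 by title (median 0.29).

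DUSP6, the phosphatase that ERK induces against itself, measured 3.90 and 3.72 with DMSO, 3.66 and 3.62 with luteolin, 0.25 and −0.21 with gefitinib, and 3.28 and 2.53 with both. The gefitinib arrays were the lowest by far, with the L+G arrays a little under DMSO, and the departure was 3.06 by title (SE 0.37, adjusted p = 0.000849) and −2.71 by file name (adjusted p = 0.000823). TXNIP, an arrestin-like FOXO and glucose target, had 3.07 and −2.77, and SESN1, a sestrin of nutrient sensing, 2.19 and −3.76 as measured. SESN1 was not well above background on either gefitinib array, which makes its departure at least 1.41 by title and at most −2.97 by file name. IRS2, the insulin receptor substrate, was below under both (−2.38 and −2.76). Of 52 cytosolic ribosomal protein genes 0 were called in any direction under either assignment, with departures between −0.68 and 0.16 by title. At an unadjusted p under 0.05 limma called 1 of them below the sum by title, and the methods' t-test 0. Relative to the 75th percentile of each array, gefitinib raised all 52 against DMSO (median 0.998), and the combination 43 (median 0.80). That percentile was 1349.9 and 1283.2 on the DMSO arrays, 650.7 and 628.4 with gefitinib, and 864.6 and 539.8 with both. A lower percentile lifts the scaled level, and whether the unscaled signal of these genes rose was not tested.

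**Figure D5:**
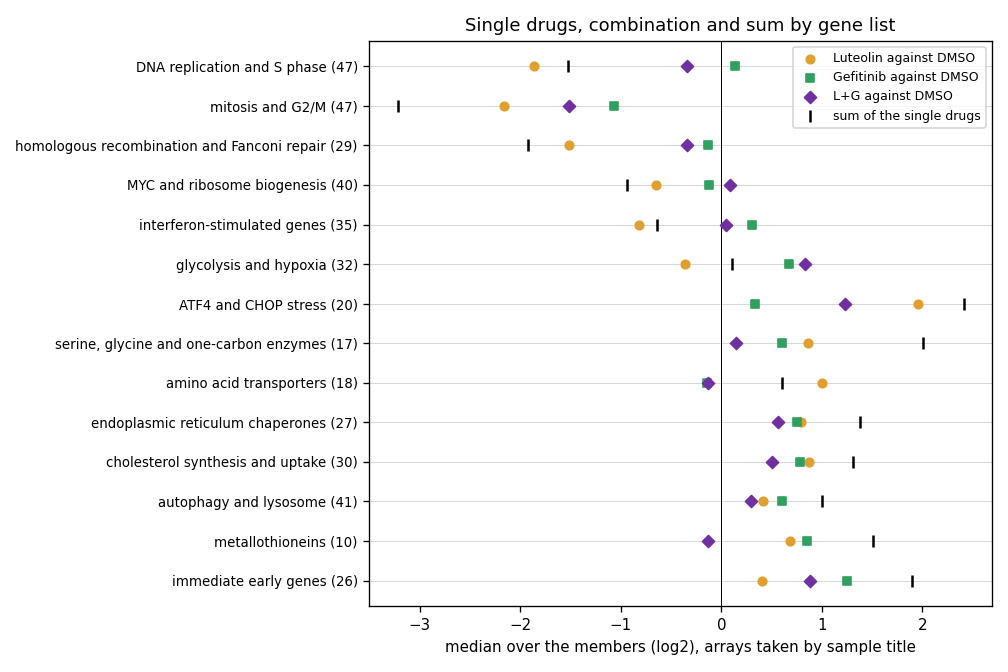
Median change against DMSO over the tested members of 14 lists (horizontal axis, log2), by title, with luteolin (circle), gefitinib (square) and both drugs (diamond), and the median of the sums (bar). The diamond lies to the right of the bar for the first 6 lists and to the left of it for the last 8.

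Of the 36 lists, 8 had more members above than below the sum under both assignments, 14 had more below under both, 11 had opposite majorities and 3 were tied under at least 1 assignment. A majority of 1 gene counts here, and by file name more of all genes lay below (24.8%) than above (19.5%), so the tally alone does not set lists apart. The lists not yet described had few members called by title, where their median departures were −0.37 for NRF2 antioxidant genes, −0.67 for epithelial and mesenchymal genes, −0.17 for GAK, cyclin G and clathrin genes, 0.05 for nuclear lamina genes and 0.35 for targets of the aryl hydrocarbon receptor. NRF2 antioxidant genes were below for 6 of 26 (23.1%) and above for 0 by title (1 above at limma's unadjusted p under 0.05, 0 by the methods' t-test). By file name 7 of them were below (26.9%) and 3 above (11.5%). Epithelial and mesenchymal genes were below for 4 of 23 (17.4%) and above for 2 (8.7%) by title, and below for 4 (17.4%) and above for 3 (13%) by file name. GAK, cyclin G and clathrin genes were below for 2 of 17 (11.8%) and above for 1 (5.88%) by title. By file name 2 of them were below (11.8%) and 3 above (17.6%). Of all genes 16.3% were below and 17.9% above by title, and 24.8% and 19.5% by file name. Nuclear lamina genes were above for 2 of 14 and below for 2 by title, and above for 7 and below for 2 by file name. Of 12 genes in the list for the aryl hydrocarbon receptor, AHR, 1 was above by title, AHR itself (1.26, limma adjusted p = 0.0137, and 0.0504 without DMSO replicate 1), and 3 were above and 3 below by file name, where AHR had −1.89.

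EGFR, the target of gefitinib, measured −0.43 and −0.43 with DMSO, −0.39 and 0.11 with luteolin, 0.13 and 0.19 with gefitinib, and −1.09 and −1.57 with both. Only the L+G arrays lay under DMSO, and the departure was −1.78 by title (SE 0.31, adjusted p = 0.00356) and 1.204 by file name (adjusted p = 0.0134). The EGF receptor family and its ligands were below for 5 of 16 and above for 0 by title (median 0.15; 0 above also at limma's unadjusted p under 0.05 and by the methods' t-test), and below for 6 and above for 3 by file name (median −0.46). ERBB3 (−1.51 and −1.14) and ERBB4 were called below under both. ERBB4 was not well above background on any gefitinib or L+G array, and both groups enter each departure. Neither the size nor the direction of each ERBB4 departure is therefore bounded. GAK measured 0.66 and 0.44 with DMSO, 0.85 and 0.88 with luteolin, 0.86 and 0.59 with gefitinib, and 0.58 and 0.85 with both. The L+G arrays overlapped both DMSO and gefitinib, and the departure was −0.32 (SE 0.25, adjusted p = 0.337) by title and −0.30 (adjusted p = 0.359) by file name. LEFTY1, a secreted inhibitor of Nodal, measured −6.57 and −6.77 with DMSO, not well above background on these arrays, −4.46 and −3.17 with luteolin, −2.08 and −3.75 with gefitinib, and −0.09 and 0.26 with both. By title the L+G arrays were the highest. The paper reports its largest LEFTY1 rise, against untreated cells, with luteolin alone, a smaller one with both drugs and the smallest with gefitinib. That is the order of the group means by file name and not by title. The paper's values come from this same array experiment, so the 2 orders are not independent. Its qRT-PCR bore out the rise with each drug alone, but not the rise with both. Which assignment is right was not tested. The departure as measured was 0.14 (SE 0.78, adjusted p = 0.899) by title and −5.85 (adjusted p = 0.000787) by file name, but DMSO has only an upper limit here. With the DMSO arrays set at their lowest level well above background, the departure is at most 1.01 by title and at most −4.98 by file name.

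Outside the lists, the genes below the sum under both assignments included SCARA5, a ferritin receptor, which had the largest of the smaller departures among those well above background on all 8 arrays. It measured −0.22 and −0.11 with DMSO, 3.49 and 3.48 with luteolin, 0.12 and 0.00 with gefitinib, and −0.09 and 0.05 with both. The departures were −3.74 by title (SE 0.22, adjusted p = 0.000146) and −3.57 by file name (adjusted p = 0.000121). AGR2, a disulfide isomerase of secretory cells, had −3.67 and −3.06, and S100P, a calcium-binding protein, −2.95 and −3.59. All 3 were raised by luteolin.

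The detection limit touched the genes above the sum more often than those below. For 689 of the 3532 genes above the sum by title, and for 4 of the 3213 below, the sum fell under −5.43. That is the lowest log2 level well above background, averaged over the L+G arrays. A level under the limit cannot be told apart from background, so for these genes the size of the departure has no exact meaning. The limit also favours the direction above the sum, most of all where the L+G arrays are themselves not well above background. Of 16277 genes well above background on all 8 arrays, 2656 were above the sum and 2906 below. Among called genes with more than 1 probe, 37 of 2065 had another probe called the other way. At a departure of at least 1, 3127 genes were above the sum and 2422 below, by title.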

How the data were processed

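The deposited intensities are the processed signal of Agilent Feature Extraction (10.7.3.1 per the file headers, where the methods name another version), background-subtracted within each array by the authors' scanner software and not normalized between arrays. The deposited series table holds the same signal (45015 of 45015 spots equal to it on every array, within 1e-04). Control and outlier spots were left out, spots of a probe were averaged in log2, and each array was set relative to its 75th percentile. A probe was well above background when at least 50% of its spots were. The 28776 of 41000 probes so on both arrays of at least 1 group were tested, for 19718 genes, each represented by its brightest probe. Symbols came from RefSeq for 23958 probes and from the files otherwise. No deposited column was unused (0).

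A limma (3.58.1, R 4.3.3) model of 5 groups, fitted to 10 arrays (residual degrees of freedom 5, prior 3.36), gave both departures as contrasts, with Benjamini-Hochberg adjustment over all probes tested. The script was tested on simulated data. The text names up to 10 genes per direction by title and under both assignments, up to 5 called members per list, and GAK, EGFR and LEFTY1. Genes and the 36 lists were chosen with earlier results of these data known. Precision is limited by having 2 arrays in each group, and no depth is a count here. P-values measure the spread between these arrays. Alternatives are given in the closing section. Some genes of the lists and markers are counted but not reported here by name.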

Additional observations from a re-analysis of the deposited data

Results flagged for a closer look

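The departure by title is also the difference between the effect of gefitinib with luteolin and its effect alone, and that interaction was tested. In 1381 genes gefitinib moved the level one way against DMSO and the other way when it was added to luteolin, with both changes and their difference past the threshold. Of these, 794 fell with gefitinib alone and rose when it was added to luteolin. Among the 1381 genes, the largest differences of those well above background on all 8 arrays, with the same sign in both replicates, were KLF2 (−5.16), HSPA6 (−5.03), RASD1 (−4.99), H4C13 (4.85), TMEM177 (4.84) and DTL (4.84). E2F2 (6.99) and MCM10 (4.97) were not well above background on 1 luteolin array and are not in that order. Their sums also lie under the detection limit, so both sizes rest on an extrapolation below background. KLF2 rose by 2.95 with gefitinib alone and fell by 2.21 when it was added to luteolin, and DTL fell by 1.28 alone and rose by 3.56 with luteolin present. By file name KLF2, HSPA6 and RASD1 did not pass the threshold, TMEM177 turned to −1.55, and DTL and H4C13 stayed above the sum.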

How the results depend on the processing

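The 6 counts of genes were within 1.5 times the value given above under most alternatives. These were normexp background correction, quantile normalization, median centring, only probes detected on each of the 10 arrays, the value table and slide as a block. The same held for only the arrays of 24 h, the 0 h baseline, the median over probes, and array weights, chosen after seeing the data. Further counts took the calls given above without a new fit, so they could not exceed them. Calls with the same sign when the sum is taken on the linear scale were 3515 above and 3212 below by title. Additivity on the linear scale was not itself tested. Also within 1.5 times, and chosen after seeing the data, were calls among genes well above background on all 8 arrays, and calls without genes with a sum under the limit. With the replicate number as a block, by title 3692 genes were above and 3482 below the sum, and under both assignments 446 and 626. The differences between replicates correlated between groups with r from −0.0976 to 0.293, and the numbers were not taken to pair the arrays. Without the filter on dim probes 261 genes were above and 371 below under both assignments, and with a departure of at least 1, 373 were below under both. With file names in place of titles 4893 genes were below. The methods' t-test without adjustment called 1310 above and 1409 below by title, 1284 and 1577 by file name, and 39 and 91 under both. With adjustment it called 0 in all 6 cases.

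Leaving out single arrays gave 2480 to 3915 genes above and 1762 to 4221 below by title, 2714 to 4342 and 3792 to 5113 by file name, and 212 to 465 and 254 to 614 under both. The fewest came without a DMSO array, and leaving out DMSO replicate 1 or 2 or luteolin replicate 2 lowered the counts under both by over 1.5 times (to 212, 221 and 227 above, and 280, 254 and 300 below). By title the count below also fell by over 1.5 times without DMSO replicate 1 (1878) or 2 (1762). Median centring moved the median departure of all genes by file name from −0.03 to 0.08. Of 68 named genes under alternatives other than the file names, calls changed for SESN1 (0.42 with normexp, adjusted p = 0.184; range from 0.00105 to 0.184), AHR (lost without DMSO replicate 1), DDIT3 (lost in 4 of 10 fits without an array), INSIG1 (5 of 10) and HSPA8 (8 of 10), and LEFTY1 gained one with normexp (1.10, adjusted p = 0.0403). LEFTY1 also took the sign below the sum with slide as a block (−0.18) and without luteolin replicate 1 (−0.50), gefitinib replicate 2 (−0.69) or L+G replicate 2 (−0.028), within a range of −0.69 to 0.98 over all fits without an array, and E2F2 with only probes above background on all arrays (−0.82, another probe).

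By file name the sign turned for TMEM177 (−1.55), DKK1 (−1.77), FEN1 (−0.62), GEM (0.46), EGFR (1.204), AHR (−1.89), LEFTY1 (−5.85), DUSP6 (−2.71), TXNIP (−2.77), SESN1 (−3.76), PPRC1 (−2.65), PPAN (−1.35), BYSL (−0.85), FADD (−2.83), CDKN1C (0.028), ANGPTL4 (−3.80), SLC2A1 (−2.07), ARC (3.49) and PLAT (3.52). By title, TGF-beta family members went from 8 above and 3 below to 5 and 6 without gefitinib replicate 2, apoptosis members to 9 and 9 without L+G replicate 2, and heat shock members to 3 and 3 with slide as a block. Signal over background limits the genes whose sum lies under the limit. The causes were not tested.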
